A study of Sus scrofa with 61 samples.

Results

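The 40 genes described here encode the proteins that copy DNA and supply its nucleotides: the replicative helicase and the factors that load it, primase and the polymerases, the sliding clamp and its loader, the single-strand binding complex, the nucleotide enzymes, and regulators of entry into S phase. They were chosen by symbol, from general knowledge of the process and from gene lists of the study, with earlier results of these data known. Each was looked up among the gene names of the array's probes. Of the 40 genes, 28 had a probe and 25 had a probe that passed the filter, which asked for a signal well above background on 80% of arrays in some group. The filter kept 43 of their 47 probes, and on the whole array it kept 42436 probes under 29858 gene names. The 12 genes with no probe under their symbol were MCM4, MCM5, MCM7, TYMS, TK1, GINS1, CDT1, ORC1, ORC6, FEN1, RPA3 and CCNE2. The only probes of POLA1, POLE and RRM1 did not pass the filter, being above background on 0, 17 and 5 of the 61 arrays.

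The samples were Longissimus muscle of 61 pig fetuses, each hybridised on its own Agilent array with 1 dye. The first letters of a genotype name the breed of the sire and the last letters the breed of the dam, so that LWLW and MSMS are purebred Large White and Meishan, LWMS comes from a Large White boar and a Meishan sow, and MSLW from a Meishan boar and a Large White sow. At day 90 of gestation there were 8 fetuses of each genotype, and at day 110 there were 9 LWLW, 8 LWMS, 5 MSLW and 7 MSMS fetuses. Sows were inseminated with semen of both breeds, so littermates of 2 genotypes shared a uterus, but the labels do not name the sow. Littermates were therefore counted as separate animals, a fetus of an MS sow cannot be told apart from a fetus of a given MS uterus, and p-values measure the spread between fetuses alone. The study asked how muscle matures before birth in breeds that differ in piglet survival.

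DNA is replicated in a single phase of the cell cycle. Origins are licensed when a ring of MCM proteins is loaded onto DNA, and the ring is then activated by CDC45 and the GINS complex to unwind the helix. Primase starts each strand, the sliding clamp PCNA tethers the polymerases, and ribonucleotide reductase makes the deoxynucleotides. Most of these genes are transcribed under E2F factors as cells enter S phase and are low in cells that have left the cycle. In fetal muscle the dividing cells include myoblasts, satellite cell precursors, fibroblasts and endothelium, whereas the nuclei of muscle fibres do not replicate. In RNA from whole muscle, fewer cells of a type and less RNA per cell cannot be told apart.

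A gene with several kept probes is represented by the brightest, here called its main probe. The probes are 60 bases long and are printed 5′ to 3′ as the scanner output lists them, without genome positions. The DUT probe is shown because DUT behaved differently from the other genes below, and its capitals mark the complement of the primer the study used for PCR of DUT. The main probe of TCF19 carries the letters AATAAA, in capitals, which are the core letters of a polyadenylation signal, while 2 of its other probes share 31 bases, also in capitals.
DUT, bases 1 to 30: gGAGGTTTTGGTTCCACTGGAacgaattaa
TCF19 main probe, bases 31 to 60: ttccgAATAAAgaatgagcagcttcataca
TCF19 probe 2: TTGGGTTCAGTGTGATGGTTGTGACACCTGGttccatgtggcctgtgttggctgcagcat
TCF19 probe 4: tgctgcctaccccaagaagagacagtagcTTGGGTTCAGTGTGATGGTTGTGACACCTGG
The letters AATAAA occur on the printed strand in 10.3% of the 60305 probes of the array and on either strand in 14.1%. They occur on the printed strand of 3 of the 43 kept probes of the replication genes. Of the 2 DUT probes, 57 of 60 bases were shared in 1 run, so they are not independent measurements. Of the 8 kept DNMT1 probes, 2 had the same 60 bases.

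The probes of RFC5, a subunit of the clamp loader, are shown because they moved in opposite directions, as described below.
RFC5 main probe, bases 1 to 30: ggggaggaaaaattaaaattgttaccagta
RFC5 probe 2: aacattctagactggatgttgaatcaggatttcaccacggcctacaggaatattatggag
RFC5 probe 3: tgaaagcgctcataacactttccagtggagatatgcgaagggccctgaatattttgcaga
The main probe held a stop codon in all 3 forward reading frames, as did 19.7% of all probes and 8 of the 43 kept probes of these genes, while probes 2 and 3 each held one in 1 frame. No run longer than 7 bases was shared by any of the 3 probes.

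Values are log2 of the background-corrected signal after quantile normalization, and differences are of group means from a limma fit of all 8 groups. A gene was called where the adjusted p of its main probe, by the Benjamini-Hochberg method over all 42436 kept probes, was under 1%. Between 34346 and 45683 probes were well above background on an array, and no probe of the replication genes was saturated. The median number was lower at day 110 in each genotype, at 40742 to 42386 against 42933.5 to 43550 at day 90. Its part in the changes of dim genes was not tested. The 61 arrays lay on 8 slides of 6 to 8 groups each. The mean over the 25 genes ran from 8.89 to 9.29 in the fetuses of day 90 and from 7.51 to 8.36 in those of day 110.

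From day 90 to day 110, transcripts of the replication genes fell in every genotype. By their main probes, in LWLW 19 of 25 genes (76.0%) fell and 1 rose, against 23.5% and 21.8% of all kept probes, and the median change of the 25 genes was -0.89 against 0.03 over all probes. In MSMS 19 fell and 2 rose, with a median of -0.98, against 28.1% and 28.6% of all probes. In LWMS 19 fell and 2 rose, with a median of -0.97, against 25.7% and 25.1%. In MSLW, with 5 fetuses at day 110, 17 fell and 1 rose, with a median of -0.93, against 23.8% and 20.8%. The 4 genotypes shared 17 genes that fell and 1 that rose, against 18.4% and 15.5% of all probes, 3 genes were called in none, and the other 4 were called in some. LIG1 and UHRF1 passed the filter through day-90 groups alone and CHAF1A through day-110 groups alone. A gene kept through 1 day alone is more likely to differ between the days, although LIG1 and CHAF1A were not called in MSLW (limma adjusted p = 0.0844 and 0.0645). Among the 21 genes above background on 80% of arrays in all 8 groups, 16 fell and 1 rose in LWLW, MSMS and LWMS, and 15 fell and 1 rose in MSLW. The ranges of the fetuses at the 2 days did not overlap for 16 falling genes in LWLW, 17 in MSMS, 17 in LWMS and 16 in MSLW, where 12.9%, 19.3%, 16.3% and 15.6% of all probes were lower without overlap.

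The size of the change of dim genes depended on how the background was corrected. Of the 95 called values of single genes, 26, of 7 genes, moved by over 1.5 times in the deposited values or with normexp, another background correction. For each of these genes, changes in some genotypes are given both ways below.

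**Figure D1:**
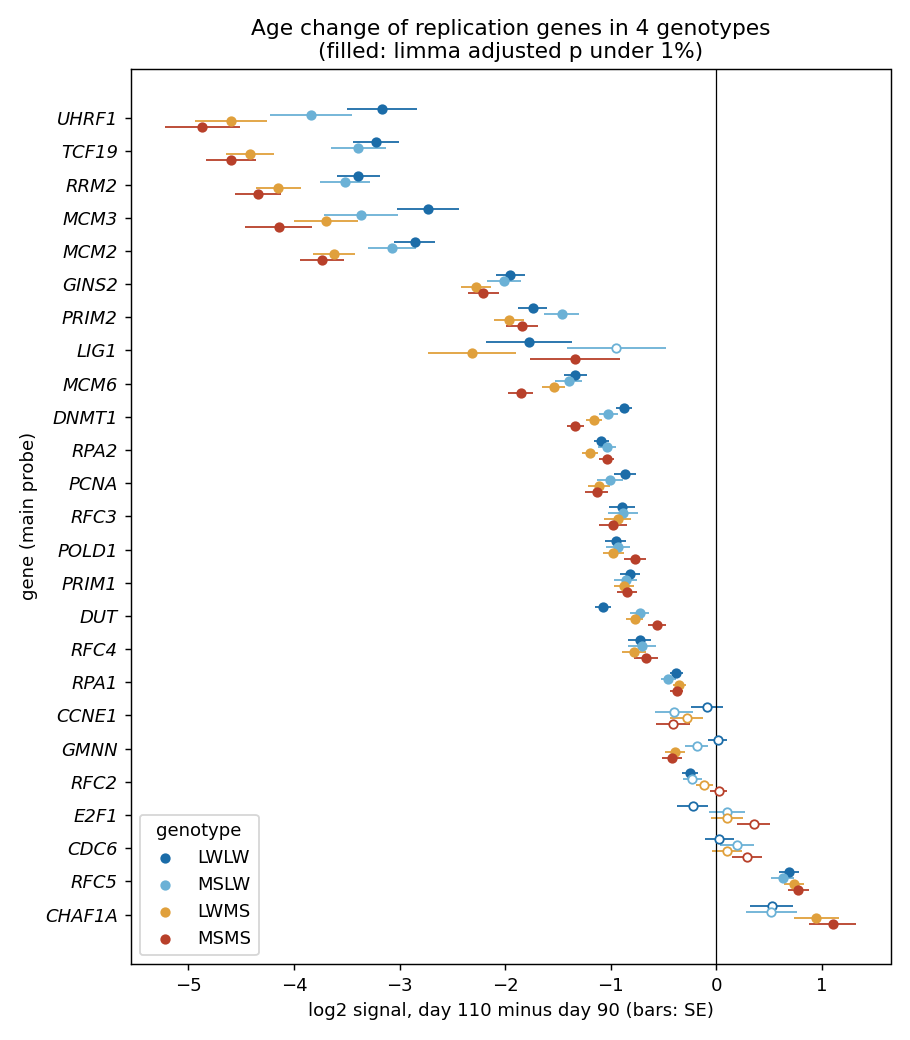
Change in log2 signal from day 90 to day 110 for the main probe of each of the 25 genes, by genotype (points: difference of group means; bars: SE; filled: limma adjusted p under 1%). Genes are ordered by their mean change over the 4 genotypes, from UHRF1 at the top, with the changes of MCM2, MCM3, RRM2, TCF19 and UHRF1 at -2.73 or lower in each genotype, to RFC5 and CHAF1A, which lie to the right of 0.

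The helicase genes were among those that changed most. MCM2, a subunit of the hexameric ring, ranged from 9.23 to 10.002 in LWLW at day 90 (median 9.61) and from 5.56 to 7.45 at day 110 (median 6.81). In MSMS it ranged from 9.26 to 9.73 at day 90 (median 9.53) and from 5.27 to 6.41 at day 110 (median 5.76). The 2 days did not overlap in either breed, and MCM2 changed by -2.85 ± 0.19 (SE) in LWLW and by -3.74 ± 0.21 in MSMS (limma adjusted p = 3.66e-19 and 4.02e-23). The change in LWLW was -2.50 in the deposited values and -2.23 with normexp, and that in MSMS -3.11 and -2.69. In the crosses MCM2 lay between 9.24 and 9.87 in LWMS at day 90 (median 9.54) and between 5.49 and 6.33 at day 110 (median 5.96). In MSLW it lay between 9.31 and 10.04 at day 90 (median 9.71), and the 5 fetuses of day 110 had 5.76, 6.10, 6.30, 6.77 and 8.02. MCM2 changed by -3.62 ± 0.20 in LWMS and by -3.07 ± 0.23 in MSLW, where the fetus at 8.02 lay above the other 4.

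MCM3, another subunit of the ring, ranged from 7.80 to 8.28 in LWLW at day 90 (median 8.07) and from 4.63 to 6.15 at day 110 (median 5.39). In MSMS MCM3 ranged from 7.66 to 8.22 at day 90 (median 7.84) and from 1.75 to 4.95 at day 110 (median 4.28), when 4 of 7 arrays measured it above background. Every fetus of day 110 lay below every fetus of day 90, and MCM3 changed by -2.73 ± 0.30 in LWLW and by -4.15 ± 0.31 in MSMS (limma adjusted p = 8.98e-12 and 1.86e-17). The change in MSMS was -2.56 in the deposited values and -1.99 with normexp, and that in LWLW -2.02 and -1.68. In LWMS MCM3 ranged from 7.72 to 8.47 at day 90 (median 8.21) and from 3.60 to 5.63 at day 110 (median 4.31, 4 of 8 arrays above background). In MSLW it ranged from 7.74 to 8.50 at day 90 (median 8.22) and read 4.05, 4.18, 4.40, 4.75 and 6.59 at day 110. MCM3 changed by -3.69 ± 0.30 in LWMS and by -3.37 ± 0.35 in MSLW, and in both the days did not overlap. MCM6, also of the ring, changed by -1.33 ± 0.11 in LWLW, -1.85 ± 0.12 in MSMS, -1.54 ± 0.11 in LWMS and -1.40 ± 0.13 in MSLW. GINS2, a subunit of the complex that activates the ring, changed by -1.95 ± 0.14 in LWLW, -2.21 ± 0.15 in MSMS, -2.28 ± 0.14 in LWMS and -2.01 ± 0.16 in MSLW.

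Of the 5 licensing genes listed, CDC6 and GMNN were measured. CDC6, which helps to load the ring, was called in no genotype, with changes from 0.03 ± 0.14 in LWLW to 0.29 ± 0.14 in MSMS (limma adjusted p = 0.0701 in MSMS). GMNN, which encodes the licensing inhibitor geminin, fell in MSMS, at -0.42 ± 0.10, and in LWMS, at -0.39 ± 0.09, while its change was 0.01 ± 0.09 in LWLW and -0.19 ± 0.11 in MSLW. ORC1 and ORC6, subunits of the origin recognition complex, had no probe under those symbols. Probes that the array names by the older symbols ORC1L and ORC6L were outside the rule and are not counted, with changes of -2.67 and -0.74 in LWLW and -2.94 and -0.89 in MSMS.

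Primase and polymerase genes fell by similar amounts in the 4 genotypes. PRIM1, the catalytic primase subunit, changed by -0.82 ± 0.09 in LWLW, -0.85 ± 0.10 in MSMS, -0.87 ± 0.09 in LWMS and -0.86 ± 0.11 in MSLW. PRIM2, the regulatory subunit, changed by -1.74 ± 0.14, -1.84 ± 0.15, -1.96 ± 0.14 and -1.47 ± 0.16 in the same order. In LWLW the change of PRIM2 was -1.32 in the deposited values and -1.08 with normexp, and in MSMS -1.41 and -1.11. The other PRIM2 probe was above background on no MSMS array of day 110. It gives only a bound there, at least 2.55-fold lower than at day 90 on this signal. POLD1, the catalytic subunit of polymerase delta, changed by -0.95 ± 0.10, -0.77 ± 0.10, -0.97 ± 0.10 and -0.93 ± 0.12. LIG1, the ligase that joins Okazaki fragments, was above background on 0 of 9 LWLW, 0 of 8 LWMS, 1 of 5 MSLW and 2 of 7 MSMS arrays of day 110. Since LIG1 passed the filter through day-90 groups alone, its differences between the days are a description. It was at least 1.31-fold lower at day 110 in LWLW and at least 1.62-fold lower in LWMS, where group means went from 4.42 to 2.64 and from 4.83 to 2.51. These bounds hold for this signal alone, since the changes were -0.51 and -0.72 in the deposited values and -0.32 and -0.51 with normexp. In MSMS and MSLW, where few arrays of day 110 measured LIG1, its group means went from 4.30 to 2.96 and from 4.06 to 3.11, which is given as a description, and the change in MSMS was -0.28 in the deposited values and -0.18 with normexp.

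PCNA, the sliding clamp, ranged in LWLW from 8.55 to 9.10 at day 90 (median 8.84) and from 7.60 to 8.27 at day 110 (median 8.01). PCNA in MSMS ranged from 8.74 to 9.21 (median 9.05) and from 7.66 to 8.19 (median 7.87). No fetus of day 110 reached the day-90 range in either breed, and the change was -0.87 ± 0.10 in LWLW and -1.13 ± 0.11 in MSMS (limma adjusted p = 2.15e-10 and 2.24e-13). PCNA in LWMS ranged from 8.50 to 9.51 at day 90 (median 9.17) and from 7.65 to 8.23 at day 110 (median 7.96), a change of -1.11 ± 0.11. In MSLW PCNA ranged from 8.55 to 9.30 at day 90 (median 8.76), and the day-110 fetuses read 7.69, 7.79, 7.84, 7.97 and 8.03, a change of -1.01 ± 0.12. The loader subunits RFC3 and RFC4 fell with it, RFC3 at -0.89 ± 0.12 in LWLW and -0.98 ± 0.13 in MSMS, and RFC4 at -0.72 ± 0.11 and -0.67 ± 0.12. Of the single genotypes RFC2 was called in LWLW alone, at -0.25 ± 0.08, and its change in MSMS was 0.02 ± 0.08. Its mean change over the 4 genotypes was called lower.

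RFC5 was the gene called higher in all 4 genotypes, but its probes disagreed. The main probe ranged in LWLW from 6.94 to 7.35 at day 90 (median 7.06) and from 7.51 to 8.05 at day 110 (median 7.86), and in MSMS from 6.68 to 7.12 (median 6.83) and from 7.44 to 7.71 (median 7.67). It rose by 0.69 ± 0.09 in LWLW, 0.77 ± 0.10 in MSMS, 0.73 ± 0.10 in LWMS and 0.63 ± 0.11 in MSLW. Probe 2 of RFC5 changed by -0.92 ± 0.11 in LWLW, -0.88 ± 0.12 in MSMS, -0.85 ± 0.12 in LWMS and -0.77 ± 0.13 in MSLW. Probe 3 changed by -0.92 ± 0.11, -0.93 ± 0.12, -1.24 ± 0.11 and -1.02 ± 0.13. All 12 of these changes passed the limma test, and the mean of the 3 probes changed by -0.38 in LWLW and -0.35 in MSMS, so the direction given for RFC5 depends on the probe.

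**Figure D2:**
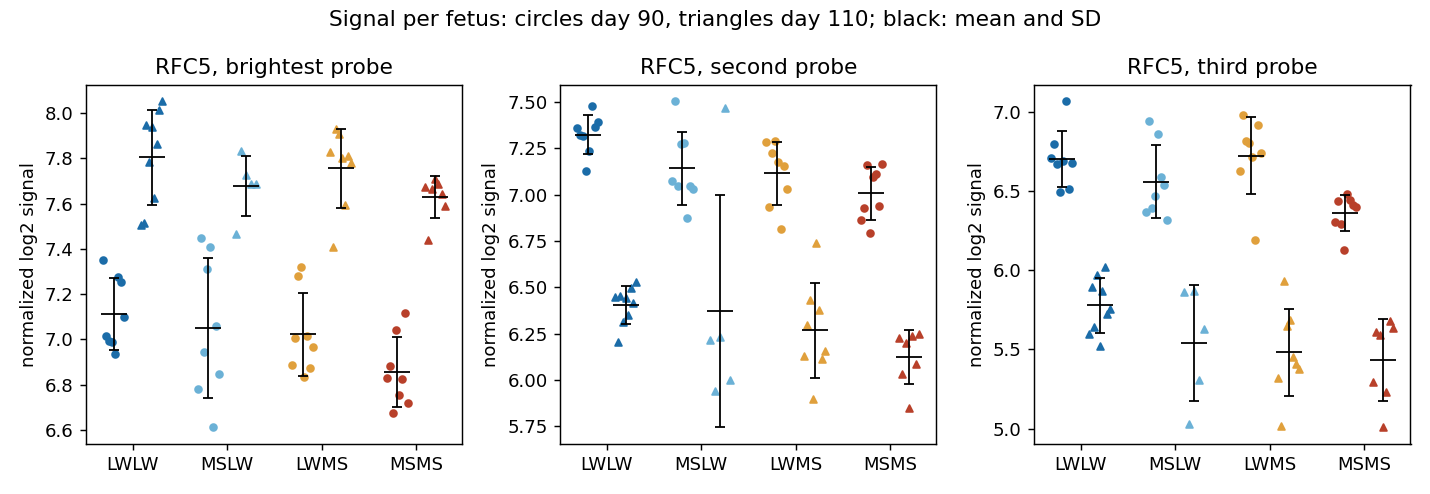
Normalized log2 signal of the 3 kept RFC5 probes in each fetus, by genotype (circles: day 90; triangles: day 110; black: mean and SD). The main probe is higher at day 110 in each genotype, with group means of 7.63 to 7.81 against 6.86 to 7.11, while probes 2 and 3 are lower.

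Both measured subunits of the single-strand binding complex RPA fell. RPA2 changed by -1.09 ± 0.07 in LWLW, -1.04 ± 0.08 in MSMS, -1.20 ± 0.07 in LWMS and -1.03 ± 0.09 in MSLW, with 7 of 8 MSLW fetuses measured at day 90. RPA1, the large subunit, changed by -0.38 ± 0.06, -0.37 ± 0.06, -0.35 ± 0.06 and -0.45 ± 0.07.

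Of the nucleotide enzymes, RRM2, the small subunit of ribonucleotide reductase, changed most. In LWLW RRM2 ranged from 9.09 to 9.71 at day 90 (median 9.38) and from 5.08 to 6.89 at day 110 (median 6.05). In MSMS RRM2 ranged from 9.17 to 10.07 at day 90 (median 9.99) and from 5.22 to 6.09 at day 110 (median 5.51). Days did not overlap, and RRM2 changed by -3.39 ± 0.20 in LWLW, which is 10.5-fold, and by -4.34 ± 0.22 in MSMS, which is 20.3-fold (limma adjusted p = 2.60e-21 and 5.42e-25). These folds hold for this signal alone. The change in LWLW was -2.94 in the deposited values and -2.59 with normexp, and that in MSMS -3.73 and -3.24. RRM2 in LWMS ranged from 9.46 to 9.99 at day 90 (median 9.75) and from 5.11 to 6.07 at day 110 (median 5.68). In MSLW RRM2 ranged from 8.98 to 10.12 at day 90 (median 9.69), and at day 110 the values were 5.53, 5.55, 5.59, 6.38 and 7.47. The crosses changed by -4.15 ± 0.21 in LWMS and -3.52 ± 0.24 in MSLW.

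DUT, the dUTPase that keeps uracil out of DNA, fell in every genotype. In LWLW DUT ranged from 13.18 to 13.66 at day 90 (median 13.34) and from 12.02 to 12.54 at day 110 (median 12.32). In MSMS DUT ranged from 13.54 to 13.94 (median 13.65) and from 13.01 to 13.31 (median 13.09). DUT changed by -1.07 ± 0.08 in LWLW and by -0.56 ± 0.08 in MSMS (limma adjusted p = 2.79e-18 and 2.29e-08), without overlap of the days. DUT in LWMS ranged from 13.15 to 13.73 at day 90 (median 13.61) and from 12.56 to 13.02 at day 110 (median 12.77), a change of -0.77 ± 0.08. In MSLW DUT ranged from 13.39 to 13.90 at day 90 (median 13.52), and the day-110 fetuses had 12.52, 12.75, 12.83, 12.98 and 13.06, a change of -0.72 ± 0.09. When arrays were instead scaled to their 75th percentile, the change of DUT in MSMS was -0.14 (limma adjusted p = 0.155), where the median over all probes was 0.13 in place of 0.03.

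Among the genes that act on newly copied chromatin, UHRF1, which recognises hemimethylated DNA, was close to the background at day 110. In LWLW UHRF1 ranged from 7.58 to 7.93 at day 90 (median 7.78) and from 3.49 to 5.69 at day 110 (median 4.96), with 6 of 9 arrays above background. In MSMS UHRF1 ranged from 7.72 to 8.20 at day 90 (median 8.11) and from 1.73 to 3.61 at day 110 (median 3.32), with 0 of 7 arrays above background. Since UHRF1 passed the filter through day-90 groups alone, its differences between the days are a description. It changed by -3.16 ± 0.33 in LWLW and was at least 15.8-fold lower at day 110 in MSMS. This bound holds for the background-corrected signal alone, and the change in MSMS was -2.92 in the deposited values and -2.24 with normexp. In LWMS UHRF1 ranged from 7.69 to 8.42 at day 90 (median 8.01) and from 1.73 to 4.80 at day 110 (median 3.41), with 0 of 8 arrays above background and a level at least 14.8-fold lower on this signal, against a change of -2.87 in the deposited values and -2.17 with normexp. In MSLW UHRF1 ranged from 7.52 to 8.26 at day 90 (median 7.94), and the day-110 values were 1.72, 3.90, 4.12, 4.56 and 6.19, with 3 of 5 arrays above background.

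DNMT1, the maintenance DNA methyltransferase, is brought to replicated DNA by UHRF1. In LWLW DNMT1 ranged from 12.64 to 13.10 at day 90 (median 12.86) and from 11.71 to 12.28 at day 110 (median 11.92). In MSMS DNMT1 ranged from 12.64 to 12.95 (median 12.72) and from 11.25 to 11.61 (median 11.43). DNMT1 changed by -0.88 ± 0.08 in LWLW and by -1.34 ± 0.08 in MSMS, each without overlap of the days (limma adjusted p = 3.23e-15 and 1.33e-21). DNMT1 in LWMS ranged from 12.65 to 13.02 at day 90 (median 12.86) and from 11.53 to 11.82 at day 110 (median 11.72), and in MSLW from 12.61 to 12.92 at day 90 (median 12.81). The MSLW fetuses of day 110 had 11.65, 11.66, 11.66, 11.72 and 12.20. CHAF1A, the large subunit of the histone chaperone CAF-1, was above background on 36 of 61 arrays. At day 90 it was above background on 3 of 8 MSMS and 4 of 8 LWMS arrays, and at day 110 on 6 of 7 and 6 of 8. Since it passed the filter through day-110 groups alone, its differences are a description, at 1.101 in MSMS and 0.95 in LWMS, against 0.47 and 0.46 in the deposited values and 0.29 and 0.26 with normexp.

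Of the S-phase regulators, TCF19, a gene of late G1 and S phase, changed together with the helicase. Its main probe is a member only through a gene list that the study chose on these fetuses, so its pattern is not independent evidence. In LWLW TCF19 ranged from 10.89 to 11.36 at day 90 (median 11.20) and from 6.88 to 9.06 at day 110 (median 7.83). In MSMS TCF19 ranged from 11.09 to 11.58 at day 90 (median 11.35) and from 6.18 to 7.31 at day 110 (median 6.61). In both breeds every fetus of day 110 lay below every fetus of day 90, and TCF19 changed by -3.22 ± 0.22 in LWLW and by -4.60 ± 0.23 in MSMS (limma adjusted p = 4.25e-19 and 1.22e-24). TCF19 in LWMS ranged from 10.997 to 11.63 at day 90 (median 11.37) and from 6.24 to 7.56 at day 110 (median 7.02), a change of -4.42 ± 0.23. In MSLW TCF19 ranged from 10.97 to 11.60 at day 90 (median 11.29), and the day-110 values were 6.87, 7.50, 7.53, 7.87 and 9.58, a change of -3.39 ± 0.26. The other 3 TCF19 probes also fell, with changes of -2.15, -3.09 and -3.30 in LWLW and of -2.37, -3.92 and -4.14 in MSMS. CCNE1 (cyclin E1) and E2F1, which drive entry into S phase, were called in no single genotype, with changes of -0.09 ± 0.15 and -0.22 ± 0.15 in LWLW and -0.41 ± 0.16 and 0.35 ± 0.16 in MSMS. In the mean change over the 4 genotypes CCNE1 was called lower, and E2F1 was not called. The share of all probes was not counted for that mean. With slide as a block in the fit, E2F1 was called higher at day 110 in MSMS, at 0.42 (limma adjusted p = 0.00248).

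**Figure D3:**
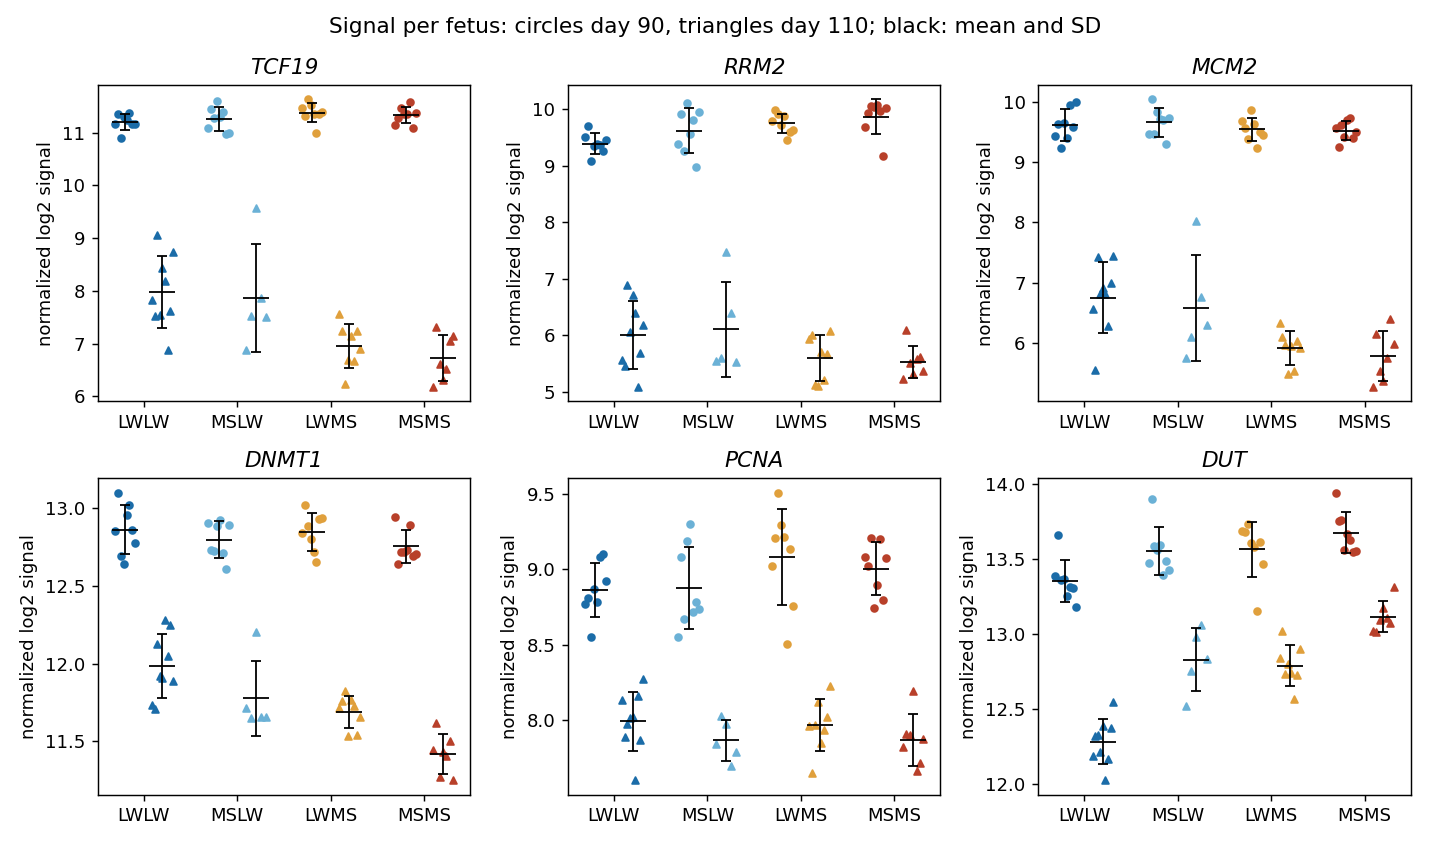
Normalized log2 signal of the main probe in each fetus of TCF19, RRM2, MCM2, DNMT1, PCNA and DUT, by genotype (circles: day 90; triangles: day 110; black: mean and SD). The MSLW group of day 110 holds 1 fetus far above the other 4 for TCF19 (9.58) and MCM2 (8.02), and DUT of LWLW at day 110 lies below that of MSMS.

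One MSLW fetus of day 110, replicate 3, stood apart from the others. It was the highest of the 5 for 16 of the 25 genes and the lowest for 2. Without it, the MSLW change was -3.82 in place of -3.39 for TCF19, -3.43 in place of -3.07 for MCM2, -3.81 in place of -3.37 for MCM3, -3.86 in place of -3.52 for RRM2 and -4.36 in place of -3.84 for UHRF1. TCF19, MCM2, MCM3 and RRM2 were called with and without it. The UHRF1 values are a description, since UHRF1 passed the filter through day-90 groups alone. With all MSLW fetuses, its change was -2.42 in the deposited values and -1.84 with normexp.

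The purebreds were then compared within a day. At day 90, 1 of 25 genes was lower and 2 were higher in MSMS than in LWLW, against 6.61% and 6.23% of all probes. RFC2 ranged from 10.19 to 10.63 in MSMS (median 10.35) and from 10.67 to 11.14 in LWLW (median 10.86), without overlap and with a difference of -0.50 ± 0.08 (limma adjusted p = 1.82e-06). CCNE1 ranged from 5.86 to 6.61 in MSMS (median 6.44) and from 5.42 to 5.94 in LWLW (median 5.67), a difference of 0.65 ± 0.16 (limma adjusted p = 0.00164) with overlap. DUT was higher in MSMS by 0.32 ± 0.08 (limma adjusted p = 0.00162), also with overlap. The genes that fell most with age did not pass the test at day 90, with differences of 0.13 ± 0.23 for TCF19, -0.09 ± 0.20 for MCM2, -0.15 ± 0.30 for MCM3, 0.24 ± 0.34 for UHRF1 and 0.48 ± 0.21 for RRM2. The second RFC3 probe was also lower, at -0.40 ± 0.06 (limma adjusted p = 1.52e-06), where the main probe, at -0.39 ± 0.13, did not pass. With each gene taken as the mean of its probes, or with only the groups compared in the fit, 5 genes were called at day 90. The share of all probes was not counted in those fits. With slide as a block RPA2 was also called, with a difference of -0.25 in MSMS (limma adjusted p = 0.00487).

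At day 110, 7 genes of 25 (28.0%) were lower in MSMS and 1 was higher, against 15.2% and 13.7% of all probes, and the median of the 25 differences was -0.20. All 3 measured helicase genes were lower, with differences of -1.56 ± 0.31 for MCM3, -0.97 ± 0.20 for MCM2 and -0.78 ± 0.11 for MCM6 (limma adjusted p = 3.84e-05, 8.77e-05 and 1.44e-07). TCF19 differed by -1.25 ± 0.23, DNMT1 by -0.57 ± 0.08 and RFC3 by -0.48 ± 0.13 (limma adjusted p = 1.22e-05, 3.93e-08 and 0.00174). UHRF1 was at least 1.49-fold lower in MSMS, where no array was above background (group means 3.15 and 4.61, limma adjusted p = 0.000470). This bound holds for the background-corrected signal alone, since the difference was -0.46 in the deposited values and -0.32 with normexp. MCM3, above background on 4 of 7 MSMS arrays, differed by -0.65 and -0.41 in those values. DUT was the gene that was higher, by 0.83 ± 0.08 (limma adjusted p = 1.27e-12). DNMT1 and DUT were the called genes whose 2 breeds did not overlap at day 110, where 4.50% of all probes were lower and 3.77% higher without overlap. With slide as a block 8 genes were lower and 2 higher, against 16.6% and 15.3% of all probes, the added calls being RPA2 at -0.22 and E2F1 at 0.47 (limma adjusted p = 0.00865 and 0.00153). E2F1 was higher in MSMS on 6 of 6 slides that held both groups, which describes the same arrays. PCNA differed by -0.12 ± 0.11, GINS2 by -0.33 ± 0.14, RRM2 by -0.48 ± 0.21 and the primase and polymerase genes by -0.10 to 0.11, none of which passed the test. A gene that was not called with 9 and 7 arrays was not shown to be equal in the breeds. Among the 21 genes above background in all groups, 5 were lower and 1 was higher.

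**Figure D4:**
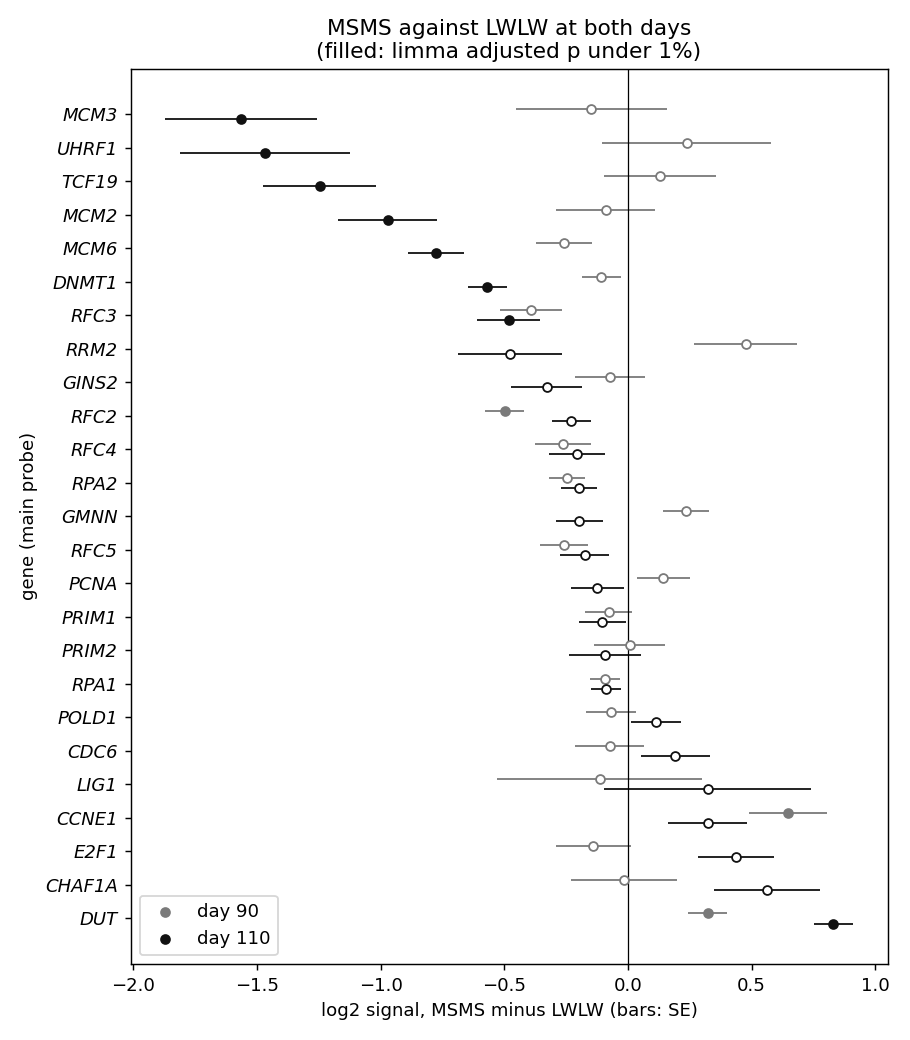
Difference in log2 signal between MSMS and LWLW at day 90 (grey) and day 110 (black) for the main probe of each of the 25 genes (points: difference of group means; bars: SE; filled: limma adjusted p under 1%). At day 90 RFC2, CCNE1 and DUT are filled, and at day 110 7 genes from MCM3 to RFC3 lie to the left of 0 with filled points and DUT lies to the right at 0.83.

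The change with age was next compared between the breeds, as the interaction of day and purebred genotype. Of the 25 genes, 2 fell further in MSMS and 1 fell less, against 3.39% and 2.56% of all probes. The main probes of the called genes, TCF19, DNMT1 and DUT, are on gene lists that the study chose on these fetuses. Their calls are therefore not independent evidence. TCF19 fell further in MSMS, with a difference of -1.37 ± 0.32 (limma adjusted p = 0.00245), as did DNMT1, with -0.46 ± 0.11 (limma adjusted p = 0.00314). DUT fell less in MSMS, with a difference of 0.51 ± 0.11 (limma adjusted p = 0.00129). On the 6 slides that held all 4 groups, the difference was below 0 on 6 of 6 for TCF19 and DNMT1 and above 0 on 6 of 6 for DUT, with medians of -1.48, -0.46 and 0.51. The slides hold the same arrays as the fit, so these values are a description. They are not particular to the called genes. MCM2, MCM3, MCM6, GMNN and UHRF1, not called in this fit, were also below 0 on 6 of 6 slides, and RFC2 and E2F1 above 0. Both DUT probes gave such a difference, 0.51 and 0.55. All 8 DNMT1 probes lay between -0.58 and -0.23, and 3 were called. The other TCF19 probes had differences of -0.22, -0.83 and -0.85, and none of them passed the test (limma adjusted p = 0.553, 0.0229 and 0.0719), so the call for TCF19 rests on its main probe.

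Several of the genes that fell most were just outside the threshold for this interaction. The difference was -1.70 ± 0.48 for UHRF1, -1.42 ± 0.43 for MCM3, -0.95 ± 0.30 for RRM2, -0.88 ± 0.28 for MCM2, -0.52 ± 0.16 for MCM6 and -0.43 ± 0.13 for GMNN, with limma adjusted p between 0.0127 and 0.0284. No MSMS array of day 110 was above background for UHRF1, and only some were for MCM3. The sizes of both differences hold for this signal alone. UHRF1 changed by -2.22 in LWLW and -2.92 in MSMS in the deposited values, and by -1.71 and -2.24 with normexp. MCM3 changed by -2.02 and -2.56 in the deposited values, and by -1.68 and -1.99 with normexp. With slide as a block 7 genes were called in place of 3, 5 of them below 0 and 2 above, against 4.58% and 4.24% of all probes. The 5 that fell further in MSMS, on the same signal, were UHRF1 at -1.72, TCF19 at -1.40, RRM2 at -1.01, DNMT1 at -0.47 and GMNN at -0.43. The other 2 were E2F1 at 0.61 and DUT at 0.47. PCNA, at -0.27 ± 0.15, and PRIM1, at -0.03 ± 0.13, were outside the threshold in both fits.

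The crosses were compared with each other and with the mean of the purebreds. Between LWMS and MSLW no gene was called at day 90, at day 110 or over both days, against 0.500%, 0.912% and 1.24% of all probes, while 1, 6 and 5 genes had an unadjusted limma p under 0.05. The gene nearest to the threshold at day 110 was TCF19, at -0.91 ± 0.26 (limma adjusted p = 0.0385), and without MSLW replicate 3 its difference was -0.48. Between the crosses and the mid-parent value no gene was called at either day, against 0.0495% and 0.0778% of all probes, with 1 and 0 genes at an unadjusted limma p under 0.05.

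In the model with sire and dam as separate terms, the change with age depended on the dam for 1 gene of 25 and on the sire for 0, against 3.05% and 0.462% of all probes, and 11 and 3 genes had an unadjusted limma p under 0.05. TCF19 fell further in fetuses of MS sows, with a difference of -1.20 ± 0.23 (limma adjusted p = 0.000468) and of -1.02 without MSLW replicate 3 (limma adjusted p = 0.000726). Probe 4 of TCF19 gave -0.83 ± 0.19 (limma adjusted p = 0.00262), and the difference by sire was -0.17 ± 0.23 on the main probe. Over all 43 kept probes of these genes, 4 were called by dam, all below 0, and 0 by sire. With slide as a block the maternal term was called for 3 genes, against 5.05% of all probes, TCF19 at -1.23, RRM2 at -0.82 and DNMT1 at -0.31. DUT had a difference of 0.24 ± 0.08 by dam and of 0.28 ± 0.08 by sire, neither of which passed the test (limma adjusted p = 0.0567 and 0.0653). The dam's genotype and the uterus the fetus grew in cannot be told apart.

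Other genes of the process were listed from general knowledge, with earlier results of these data known. Of all kept probes, 23.5% fell and 21.8% rose in LWLW, and 28.1% fell and 28.6% rose in MSMS. At day 110, 15.2% were lower and 13.7% higher in MSMS, and the interaction was called below 0 for 3.39% and above 0 for 2.56%. Of 33 other genes of the fork and of origins, 25 were measured, and 13 fell and 0 rose in LWLW while 16 fell and 2 rose in MSMS, with medians of -0.31 and -0.53. CDC45, the helicase partner of GINS, changed by -1.35 in LWLW and -1.39 in MSMS. In this list 7 genes were lower and 1 higher in MSMS at day 110. The interaction was called for 4 of the 25, namely POLA2, the accessory subunit of polymerase alpha, at -1.43, DBF4, the activator of the CDC7 kinase, at -0.78, SLBP, which binds histone mRNA, at -0.52, and the helicase gene RECQL4 at 0.82. Of 31 other nucleotide synthesis and salvage genes, 19 were measured, and 7 fell and 6 rose in LWLW while 7 fell and 8 rose in MSMS, so this list did not move one way. RRM2B, the reductase subunit used outside S phase, rose by 0.89 in LWLW and by 1.34 in MSMS, opposite to RRM2. Of 12 other E2F and pocket protein genes, 7 were measured, and 3 fell and 1 rose in LWLW while 4 fell and 2 rose in MSMS.

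Of 20 genes of mitosis, 16 were measured, and 14 fell and 1 rose in every genotype, with medians of -2.91 in LWLW and -3.72 in MSMS. TOP2A, which untangles sister chromatids, changed by -3.37 in LWLW and -4.65 in MSMS, and MKI67 was the gene that rose, by 0.38 and 0.34 on its brightest probe. In MSMS at day 110, 10 of the 16 were lower than in LWLW and 0 were higher, and the interaction was called for 4, all further down in MSMS.

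Markers of the cell types that muscle can hold were counted beside these genes. The shares of all probes given for the other lists hold here too, and the marker counts were not tested against them. All 6 fibroblast markers fell in each genotype, 5 of 6 were lower in MSMS than in LWLW at day 110, and 5 of 6 fell further in MSMS, COL1A1 for instance at -2.09 in MSMS against -0.97 in LWLW. Their summed level ranged from 18.62 to 19.03 on the log2 scale at day 90, and at day 110 from 17.13 to 17.84 in LWLW, 16.77 to 17.64 in LWMS, 16.99 to 17.70 in MSLW and 16.45 to 16.83 in MSMS. Each of the 6 was above background on at least 1 array of every group, and their part in the changes of the replication genes was not tested. Muscle fibre markers defined the tissue in every fetus, with a summed level of 20.94 to 21.29 at day 90 and 21.23 to 21.35 at day 110, and 1 of 8 fell and 3 rose in LWLW while 2 fell and 3 rose in MSMS. Of 4 myoblast markers 2 fell and 1 rose in both breeds, PAX7, the satellite cell factor, being the one that rose, by 0.56 in LWLW and 1.69 in MSMS. Of 5 endothelial markers 3 fell and 1 rose in both breeds. Of 4 leukocyte markers 2 fell in LWLW and 1 in MSMS, of 3 erythroid markers 1 rose in each, of 4 adipocyte markers 0 passed the test in LWLW and 2 fell in MSMS, and of 3 Schwann cell markers 2 rose in LWLW and 1 in MSMS.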

How the data were processed

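Longissimus muscle RNA of 61 fetuses was measured on 1-colour Agilent arrays. The authors scanned the arrays with Agilent Feature Extraction 10.10.1.1, whose deposited background-corrected signal is a linear intensity per spot, and deposited a table of quantile-normalized log2 values, which follows the scanner's median signal and was used as an alternative. Groups came from the labels. Quantile normalization between arrays and the log2 transform were done on this intensity with limma 3.58.1 in R 4.3.3. Control spots were left out, non-uniform spots were set to missing, replicate spots were averaged, and probes well above background on 80% of the arrays of 1 group were kept. Group means were compared by limma's moderated two-sided test, with Benjamini-Hochberg adjustment and a threshold of 1%. The study's random sow effect could not be fitted. The number of arrays limits the precision. The fit was tested on simulated data drawn independently for each array. That test does not cover littermates or signals near background.

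The members and lists were chosen with earlier results of these data known. Each gene was named through its brightest kept probe. Values per group are given in full for DUT, TCF19, PCNA, the 5 genes with the largest mean age change, the 5 with the largest called difference at each comparison of the purebreds, and RFC5, whose probes disagreed. Alternatives were the median signal, the deposited values, normexp with offset 50, scaling to the 75th percentile, other filters, non-uniform spots kept, slide as a block, the mean of a gene's probes, only the groups compared, no moderation, and leaving out each MSLW fetus of day 110. No promoter sequences were used here.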

Additional observations from a re-analysis of the deposited data

Results flagged for a closer look

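In 17 of the 200 sets of fetuses examined (25 genes in 8 groups), 1 fetus lay further from the rest than Dixon's 95% critical value allows, where chance gives about 1 in 20. In the MSLW group of day 110 the highest fetus had 12.20 for DNMT1, 6.59 for MCM3 and 10.69 for RFC2, and the lowest had 3.54 for CHAF1A. In the MSMS groups the lowest fetus had 9.17 for RRM2 at day 90 and 1.73 for UHRF1 at day 110, a value below background. In LWLW the lowest fetus had 11.01 for RFC3 at day 90 and 10.11 at day 110, and 10.89 for TCF19 at day 90, while the highest had 13.66 for DUT and 8.83 for E2F1 at day 90. In LWMS the lowest fetus had 11.33 for RFC3 and 13.15 for DUT at day 90, and the highest had 7.21 for LIG1 at day 90 and 9.35 for GMNN at day 110. In MSLW at day 90 the highest fetus had 13.90 for DUT and the lowest had 9.15 for PRIM1.

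Effects that differed between groups by limma's test of the interaction were the age change between the purebreds for TCF19 (-1.37), DNMT1 (-0.46) and DUT (0.51), and the age change by maternal genotype for TCF19 (-1.20). The main probes of these genes are on gene lists that the study chose on these fetuses, so the calls are not independent evidence.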

How the results depend on the processing

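The counts of called genes for the age change in the 4 genotypes and for MSMS against LWLW at day 110 stayed within 1.5 times under every alternative that was run. The maternal term was called for 3 genes with the median signal, the deposited values, normexp or slide as a block, for 2 with probes above background on all arrays, with non-uniform spots kept or without moderation, and for 1 to 4 when each MSLW fetus of day 110 was left out. Shares of all probes were counted for the main fit and, for some comparisons, with slide as a block, and not for the other alternatives. The age change between breeds was called for 7 genes with slide as a block, which also added RPA2 and E2F1 to the genes called at day 110, RPA2 at day 90 and E2F1 to the age change in MSMS. At day 90, 5 genes differed between the purebreds with the mean of a gene's probes (3 lower and 2 higher) or with only the groups compared (2 lower and 3 higher). Between the crosses at day 110, 0 to 1 genes were called when an MSLW fetus was left out. RFC5 reversed with the mean of its probes, to -0.38 in LWLW, -0.35 in MSMS, -0.45 in LWMS and -0.39 in MSLW. Of the single genes, 1103 values stayed on their side of the threshold, 17 lost their call and 4 reversed. Those that lost it were RFC2, LIG1, DUT, UHRF1 and TCF19, with TCF19 between breeds at -0.82 with the mean of its probes (limma adjusted p = 0.0175) and DUT at day 90 at 0.29 to 0.30 with the median signal, the deposited values or normexp (limma adjusted p = 0.0115 to 0.0129). The cause was not tested. Dim genes are limited by the background correction, which moved 26 of 95 called values by over 1.5 times, those of CHAF1A, LIG1, MCM2, MCM3, PRIM2, RRM2 and UHRF1. A block for scan date was not run, because all arrays were scanned on 1 day. No paired analysis was possible because the labels give no numbers that pair fetuses of different groups.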
